A study of Mus musculus with 8 samples.

Results

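The Bcl2 family genes that decide between survival and mitochondrial death of a cell were followed in mouse bone marrow progenitors. They were 10 genes of the 27998 in the count table: Bcl2, Mcl1, Bcl2l1, Bax, Bak1, Bid, Bad, Bcl2l11, Bbc3 and Pmaip1. The genes were listed by name and not by a rule on their values, though earlier results of these data were known. The cells were KL cells of the bone marrow of C57BL/6 females aged 3 to 4 months, sorted as carrying CD117 (c-Kit) and lacking GR1, TER119, CD11b, CD45R, CD8, CD4 and CD3. The study asked how exposure to the microbes of a conventional animal house bears on hematopoiesis. CVT mice were moved to a conventional facility and co-housed there for 1 month, and SPF mice stayed in a specific-pathogen-free facility. Each group gave 4 pools of 2 or 3 mice, 10 mice in all, and each pool gave 1 droplet library, so the pool was the replicate and differences between single mice could not be seen.

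Proteins of this family meet at the outer mitochondrial membrane. The pro-survival members hold the effectors Bax and Bak in check, and the BH3-only members, which are switched on by stress, loss of growth factors or death receptors, release or activate the effectors so that cytochrome c leaves the mitochondrion and caspases are activated. In blood formation Mcl1 is needed for the survival of stem and progenitor cells, Bcl-xL for erythroid cells and platelets, and Bim limits the number of lymphoid and myeloid cells.

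The libraries counted the 3' ends of transcripts as unique molecular identifiers (UMIs), 1 for each captured molecule whatever its length, so levels could be compared between genes, while splice forms such as the long and short forms of Bcl2l1 could not be separated. Pools 1, 2, 7 and 8 were SPF and pools 3, 4, 5 and 6 were CVT. Pools 1 to 8 held 1888, 3845, 4845, 4176, 4341, 4198, 2064 and 4534 cells, 29891 in all, with 19041749, 43194400, 57567699, 59812346, 41901551, 44600182, 19814800 and 49911524 UMIs. A cell was given to a pool by the number at the end of its name, matched to the number in the sample's label. No other label ties cells to pools, so every value by pool or housing rests on this match. Of 29365 barcodes, 522 were found in more than 1 pool, between 0.276% and 0.921% of the smaller pool of a pair. RNA free in the suspension was not removed, so a level near 0 could hold molecules from other cells. Levels are given in CPM, the UMIs of a gene relative to all UMIs of the same cells, with the SD over 8 pools unless stated.

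In the sorted cells Kit, the gene of CD117, lay between 56.8 and 87.2 CPM in the 8 pools. The genes of markers used to remove mature cells were lower for T cells, with Cd3e at 0 to 0.454, Cd4 at 0.139 to 0.656 and Cd8a at 0 to 0.315 CPM, but not absent for myeloid cells, with Itgam (CD11b) at 5.99 to 29.1 and Ly6g (part of the GR1 epitope) at 7.41 to 69.5 CPM. The pools fell into 2 sets by the numbers of the mice, pools 1 to 4 from mice 1 to 10 and pools 5 to 8 from mice 11 to 20, each with 2 SPF and 2 CVT pools, and marker levels differed between these sets on average. All 20 late granulocyte markers were detected, and their summed level, led by S100a8, was 13060 CPM in the first set on average and 31640 in the second, with 25520, 10540, 9798, 6397, 29850, 27750, 49830 and 19110 CPM in pools 1 to 8. All 25 erythroid markers, led by Car1, summed to 4195 CPM in the first set and 6014 in the second. Marker lists of other cells were also lower in the first set than in the second, at 156.5 against 199.4 CPM for B cells (14 genes, Chchd10 the most abundant), 308.6 against 374.1 for T and NK cells (11 of 12 listed genes in the table, Nkg7), 1456 against 1672 for monocytes (15 genes, Crip1), 328.6 against 422.8 for dendritic cells (18 genes, Bst2), 51.7 against 83.6 for eosinophils (10 genes, Cebpe) and 43.3 against 45.8 for stroma and endothelium (11 genes, Pecam1). The pools of the sets did not overlap for the B, T and NK and dendritic lists and overlapped for the other 5. No listed gene in the table was at 0 in all pools.

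The cells were grouped into 32 clusters from genes that did not include the 10 members or the 55 other genes of the pathway, and clusters were named by marker genes as resembling a class. There were 9 classes with enough cells in every pool to be compared: long-term hematopoietic stem cells (LTHSC-like, 2898 cells), multipotent progenitors (MPP-like, 1734), lymphoid-primed multipotent progenitors (LMPP-like, 3055), granulocyte-monocyte progenitors (GMP-like, 2754), monocyte-like cells (3635), late granulocyte-like cells (1655), basophil and mast-like cells (916), megakaryocyte-like cells (2651) and megakaryocyte-erythroid progenitors with erythroid cells (MEP and erythroid-like, 7945). Smaller classes were B-like (168 cells), T and NK-like (141) and dendritic-like (80), and 5 clusters with 2259 cells (7.56%) stayed unnamed. Of these, cluster 26, led by interferon-response genes such as Ifit1 and Usp18, held 0.711% ± 0.226 of the cells of an SPF pool and 0.514% ± 0.128 of a CVT pool, and cluster 29, in which Scrublet marked 26 of 97 cells as doublets, held 0.23% ± 0.177 and 0.349% ± 0.107 (SD, n = 4 pools). Cluster 19 held 1.8% ± 0.283 of an SPF and 2.78% ± 0.947 of a CVT pool, cluster 17 held 2.76% ± 0.684 and 2.91% ± 0.906, and cluster 24 held 1.3% ± 0.379 and 1.29% ± 0.0264. The largest MEP and erythroid-like cluster, cluster 1, was loosely defined, with 4 markers of that class and 4 of common myeloid progenitors among its 100 most specific genes.

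In all KL cells the members spanned a wide range of levels. Bax was the most abundant at 153.1 ± 5.96 CPM, followed by Bcl2 at 98.8 ± 8.43. Bad (52.8 ± 3.16), Bak1 (48.8 ± 7.07), Mcl1 (44.3 ± 4.32) and Bid (42.4 ± 4.58) came next. Over pools each of these overlapped with its neighbors in this order, while Bad (lowest pool 49.5) lay above Bid (highest pool 47.2). Bbc3 (11 ± 1.13), Bcl2l11 (7.58 ± 0.424) and Bcl2l1 (5.74 ± 0.744) were lower, and Pmaip1 was lowest at 1.48 ± 0.556 CPM. The depth behind these values ran from 51748 UMIs for Bax to 512 for Pmaip1 over all cells. Levels of Pmaip1 in a class rest on very few molecules, such as 5 in all LTHSC-like cells, and its order over the lower classes could not be read at this depth.

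**Figure D1:**
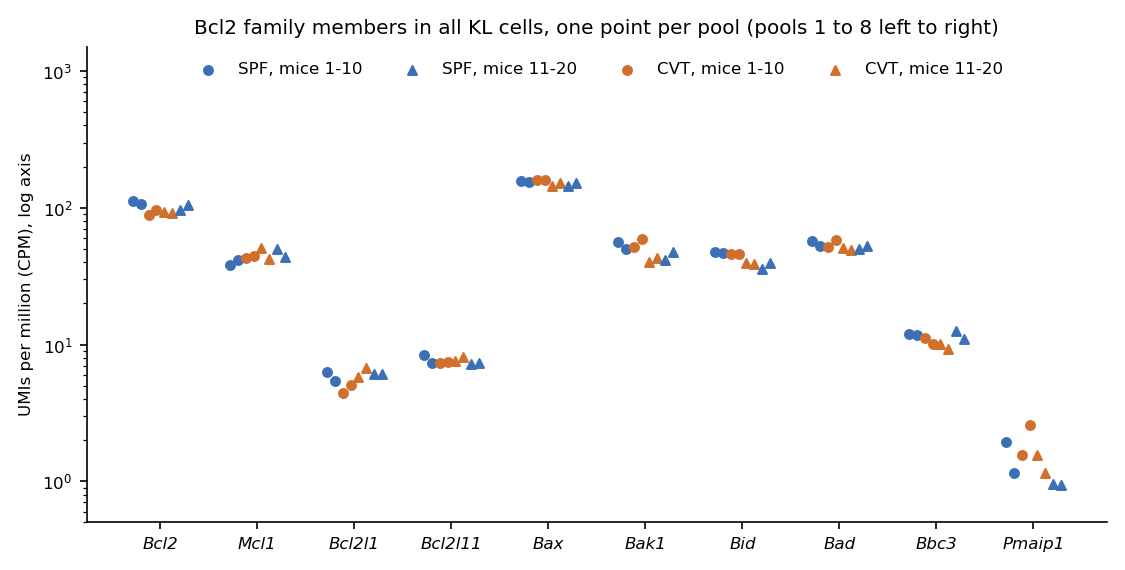
Level of each member in all KL cells, in CPM on a log axis, with 1 point per pool; color marks housing and shape marks the pool set. Bax lay between 145 and 160.3 CPM in the 8 pools and Pmaip1 between 0.942 and 2.56, and for Bid the 4 pools of mice 1 to 10 all lay above the 4 of mice 11 to 20.

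Promoter sequences are shown for 4 members that the comparisons of classes turn on: Bcl2, which had the widest range among abundant members, Mcl1 and Bbc3, which were both higher in CPM in 3 classes than in GMP-like cells, and Bid, which was lower in those 3. RefSeq's table for build GRCm38.p6 held 15 windows of the 250 bases before a start for 9 of the 10 members, all but Pmaip1. Capitals mark GGGCGG, bound by Sp and Klf factors, or CCGGAAG, bound by Ets factors, read on both strands, so that CCGCCC and CTTCCGG count as well; matches of GGGCGG may share bases. The window of Bcl2 is chr1:106714291-106714540 on the minus strand (74.8% G and C), that of Mcl1 chr3:95658471-95658720 on the plus strand (64.4%), the first of 3 windows of Bbc3 chr7:16309333-16309582 on the plus strand (76.4%) and that of Bid chr6:120916825-120917074 on the minus strand (63.6%).
Bcl2: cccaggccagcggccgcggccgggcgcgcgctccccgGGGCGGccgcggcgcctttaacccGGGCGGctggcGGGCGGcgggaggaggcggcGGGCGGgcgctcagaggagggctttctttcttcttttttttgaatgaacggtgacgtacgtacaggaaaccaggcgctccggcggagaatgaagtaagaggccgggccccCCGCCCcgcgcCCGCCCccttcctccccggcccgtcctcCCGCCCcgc
Mcl1: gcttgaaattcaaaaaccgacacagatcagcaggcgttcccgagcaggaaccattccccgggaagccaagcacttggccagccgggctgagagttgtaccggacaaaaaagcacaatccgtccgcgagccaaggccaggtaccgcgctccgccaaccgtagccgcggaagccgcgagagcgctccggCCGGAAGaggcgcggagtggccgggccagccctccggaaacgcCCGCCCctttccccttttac
Bbc3: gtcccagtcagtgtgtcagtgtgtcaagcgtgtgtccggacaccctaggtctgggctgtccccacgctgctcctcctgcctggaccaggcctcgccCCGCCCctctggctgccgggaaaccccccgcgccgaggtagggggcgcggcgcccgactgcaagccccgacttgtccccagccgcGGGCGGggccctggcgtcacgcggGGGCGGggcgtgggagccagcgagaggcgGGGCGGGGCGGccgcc
Bid: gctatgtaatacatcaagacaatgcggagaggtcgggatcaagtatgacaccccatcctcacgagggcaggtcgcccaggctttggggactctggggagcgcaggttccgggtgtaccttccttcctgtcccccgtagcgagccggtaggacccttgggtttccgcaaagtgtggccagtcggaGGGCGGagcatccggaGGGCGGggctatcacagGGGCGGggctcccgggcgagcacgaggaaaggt

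GGGCGG was in 10 of the 15 windows, of 7 of the 9 members with one (Bcl2, Mcl1, Bcl2l11, Bax, Bid, Bad and Bbc3), and in 32.7% of the 32851 windows of all genes. CCGGAAG was in 2 of the 15, of Mcl1 and Bcl2l11, against 6.91% of all windows, and CACGTG, an E-box that reads the same on both strands, in 2, of Bax and Bbc3, against 6.02%. AGATAA, bound by GATA factors, was in 1 window of Bcl2l1 (9.99% of all). TATAAA (12.4% of all) and TGACGTCA, the cAMP response element (1.55%), were in no window of a member. The printed windows were richer in G and C than the median of all windows, 52.4%. A match describes these letters only. The submitters' notes name build mm9 for the counts, so the windows were tied to the counts by gene symbol and not by position.

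Bcl2, the founding pro-survival member, varied most between classes among the abundant members, by 8.50 times between the highest and the lowest mean. Over the 8 pools it lay between 154.6 and 225.6 CPM in MPP-like cells (median 180.6) and between 16.5 and 28.9 in MEP and erythroid-like cells (median 20.9), and the ranges were far apart. Between these ends the means were 182 ± 17.2 CPM in monocyte-like, 169.9 ± 23.2 in LMPP-like, 108 ± 12.5 in megakaryocyte-like, 97.9 ± 14.5 in LTHSC-like, 85.7 ± 15.1 in basophil and mast-like, 76.5 ± 13.4 in GMP-like and 23.9 ± 8.46 in late granulocyte-like cells. Neighbors in this order overlapped over pools, except GMP-like (lowest pool 62.9) and late granulocyte-like cells (highest pool 32.4). The range was over 1.5 times wider in 2 alternatives. With the lists allowed in clustering, Bcl2 itself was among the genes used to group cells and no MPP-like class was found. MEP and erythroid-like cells were then at 12 CPM and monocyte-like cells, the highest, at 179. The content of the class had changed as well: clusters sharing leading genes with cluster 1 lay outside it, named as common myeloid progenitors (1827 cells) or unnamed (1995 cells). Without the top doublet scores late granulocyte-like cells became the lowest at 12.4 and monocyte-like cells the highest at 187. Counted per cell and not in CPM, Bcl2 was highest in monocyte-like cells at 2.68 UMIs and lowest in late granulocyte-like cells at 0.213; the median UMIs of a cell were 15620 in GMP-like, 15200 in monocyte-like and 6002 in LTHSC-like cells.

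Clusters within a class differed in Bcl2 as well. Of the MEP and erythroid-like clusters, cluster 1 held 59.6 ± 4.86 CPM of Bcl2 and cluster 2 29.6 ± 2.45, while clusters 10, 15 and 21 held 7.42 ± 1.84, 7.33 ± 3.81 and 3.94 ± 1.69. Their cells held a median of 5096, 9071, 27050, 19570 and 28710 UMIs in this order. The fall in CPM is therefore not one of the same size per cell, and levels per cell were not compared between clusters. In cluster 28, with 137 cells and 25 UMIs of Bcl2, it was at 0 in pools 1 to 4 and at 29.9, 15.5, 21.4 and 14.5 CPM in pools 5 to 8, a split by pool set that rests on few molecules and was not tested. Among GMP-like clusters, cluster 16, led by Elane and Ms4a3, was low at 26.7 ± 3.38, against 97.7 ± 15.8 in cluster 9 and 112.9 ± 20.3 in cluster 20. The same held in monocyte-like cells, where cluster 22, led by Fn1 and S100a4, had 23.8 ± 9.56 CPM against 231.2 ± 16.0 in cluster 7 and 176.8 ± 28.2 in cluster 8. Late granulocyte-like clusters 18 and 23 were at 6.68 ± 2.91 and 9.39 ± 4.89, and cluster 25 was at 77.6 ± 18.1. Scrublet marked 11 of the 313 cells of cluster 25 as doublets and 0 in clusters 18 and 23. Without the top doublet scores the late granulocyte-like class was at 12.4 CPM, and the part of doublets in the level of cluster 25 was not tested. Outside the tested classes, the 92 cells of the T and NK-like cluster 30, led by Tcf7 and Rora and resting on 4 of 12 markers, had the highest Bcl2 of any cluster, 1337 ± 226 CPM.

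**Figure D2:**
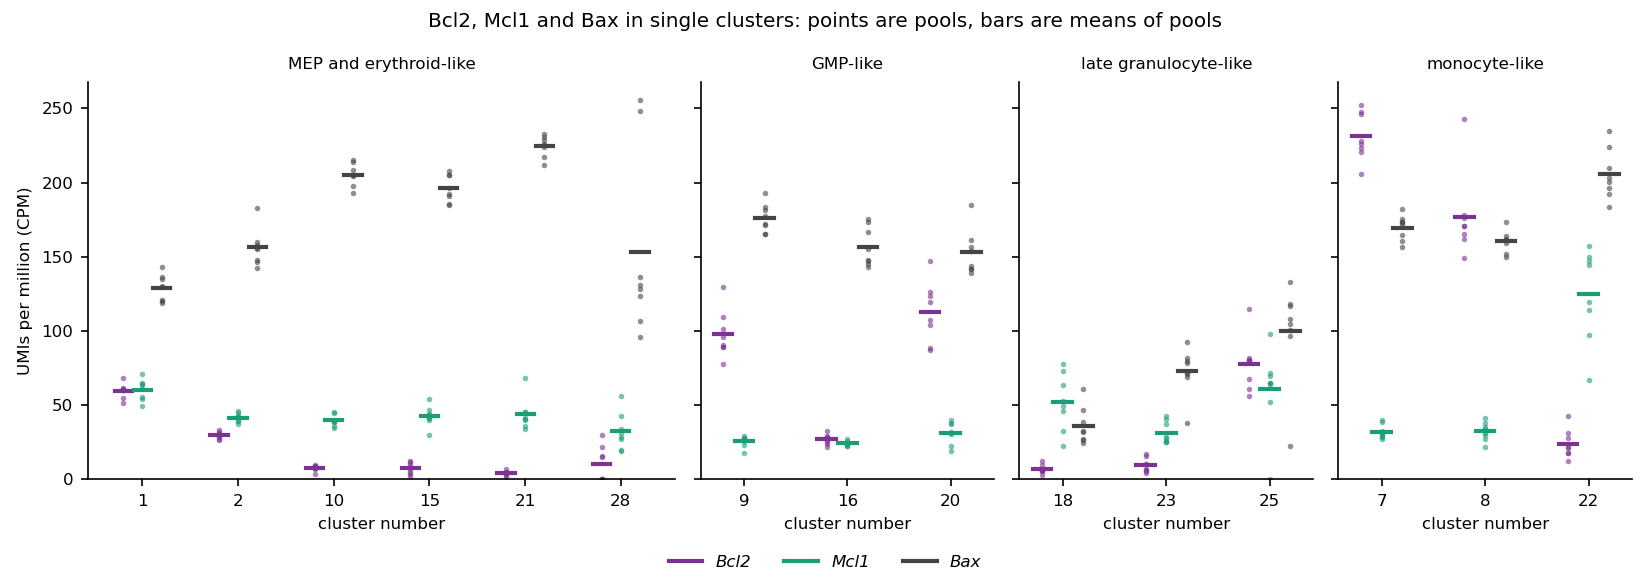
CPM of Bcl2, Mcl1 and Bax in each cluster of 4 classes, in order of cluster number; points are pools and bars are means of pools. Bcl2 was low in clusters 10, 15 and 21 of the MEP and erythroid-like, 16 of the GMP-like, 18 and 23 of the late granulocyte-like and 22 of the monocyte-like class, while Mcl1 reached 124.5 ± 31.2 CPM in cluster 22.

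Mcl1, a pro-survival protein that is degraded quickly, varied less, by 2.55 times. It lay between 51.1 and 89.5 CPM in LTHSC-like cells (median 65.2) and between 22.5 and 29.5 in GMP-like cells (median 25.8). The highest GMP-like pool was below the lowest pool of each of the other 8 classes, and monocyte-like cells came next at 42.3 ± 8.08 CPM, although their clusters 7 and 8, with pools at 26.7 to 39.8 and 21.5 to 41.1 CPM, overlapped with GMP-like cells. LMPP-like (55.7 ± 6.87), basophil and mast-like (53.1 ± 8.21), MPP-like (47.8 ± 7.64), late granulocyte-like (46.2 ± 12.2), MEP and erythroid-like (44.3 ± 4.17) and megakaryocyte-like cells (43.0 ± 5.39) overlapped with their neighbors. Per cell, Mcl1 ran only from 0.375 UMIs in basophil and mast-like to 0.614 in monocyte-like cells, so the first and last places depend on the scale. In monocyte-like cluster 22 it reached 124.5 ± 31.2 CPM, against 31.9 ± 4.75 and 32.1 ± 6.23 in clusters 7 and 8.

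The balance between these 2 survival genes differed between classes. The ratio of Mcl1 to Bcl2 UMIs was 0.453 ± 0.069 in all KL cells and between 0.237 ± 0.066 (monocyte-like) and 0.694 ± 0.16 (LTHSC-like) in 7 classes, but 2.11 ± 0.354 in MEP and erythroid-like and 2.31 ± 1.41 in late granulocyte-like cells. Over pooled cells it was 1.02 in cluster 1, 1.39 in cluster 2, 4.98 in cluster 10, 5.09 in cluster 15 and 10.5 in cluster 21, and it was 9.96, 3.55 and 0.964 in the late granulocyte-like clusters 18, 23 and 25 and 5.04, 0.141 and 0.203 in the monocyte-like clusters 22, 7 and 8. In late granulocyte-like cells the ratio ran from 1.03 to 5.14 over pools, and their cluster 25 held 11 cells marked as doublets. The T and NK-like cluster 30 lay at the other end with 0.045. A ratio of UMI sums of the same cells is the same in CPM and per cell, but can differ when each cell is scaled to its own total. These are messenger levels, and the amount of either protein was not measured.

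Bcl2l1, which encodes Bcl-xL, was a low-count gene, with 1880 UMIs in all. It was highest in megakaryocyte-like cells at 12.3 ± 2.14 CPM, where the pools lay between 9.25 and 14.6, and lowest in MEP and erythroid-like cells at 3.93 ± 0.937 with pools between 2.38 and 5.04. LTHSC-like (9.23 ± 2.51), MPP-like (8.17 ± 3.05) and LMPP-like cells (6.60 ± 1.81) lay between, and all neighbors in the order overlapped. The lowest place was not firm, as GMP-like cells, at 3.997 ± 1.66 CPM, were above MEP and erythroid-like cells in only 3 pools. GMP-like cells were lowest at resolution 1 (3.52) and with each cell scaled to its own total (4.15). Per cell, megakaryocyte-like cells were again highest at 0.12 UMIs and basophil and mast-like cells lowest at 0.0319. In MEP and erythroid-like cluster 28, with 137 cells, Bcl2l1 was at 0 in pools 1 to 3. It was at 6.72, 14.96, 33.64, 55.55 and 19.36 CPM in pools 4 to 8, a difference that was not tested. The B-like cluster, with only 35 UMIs of it, had 24.4 ± 6.88 CPM.

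**Figure D3:**
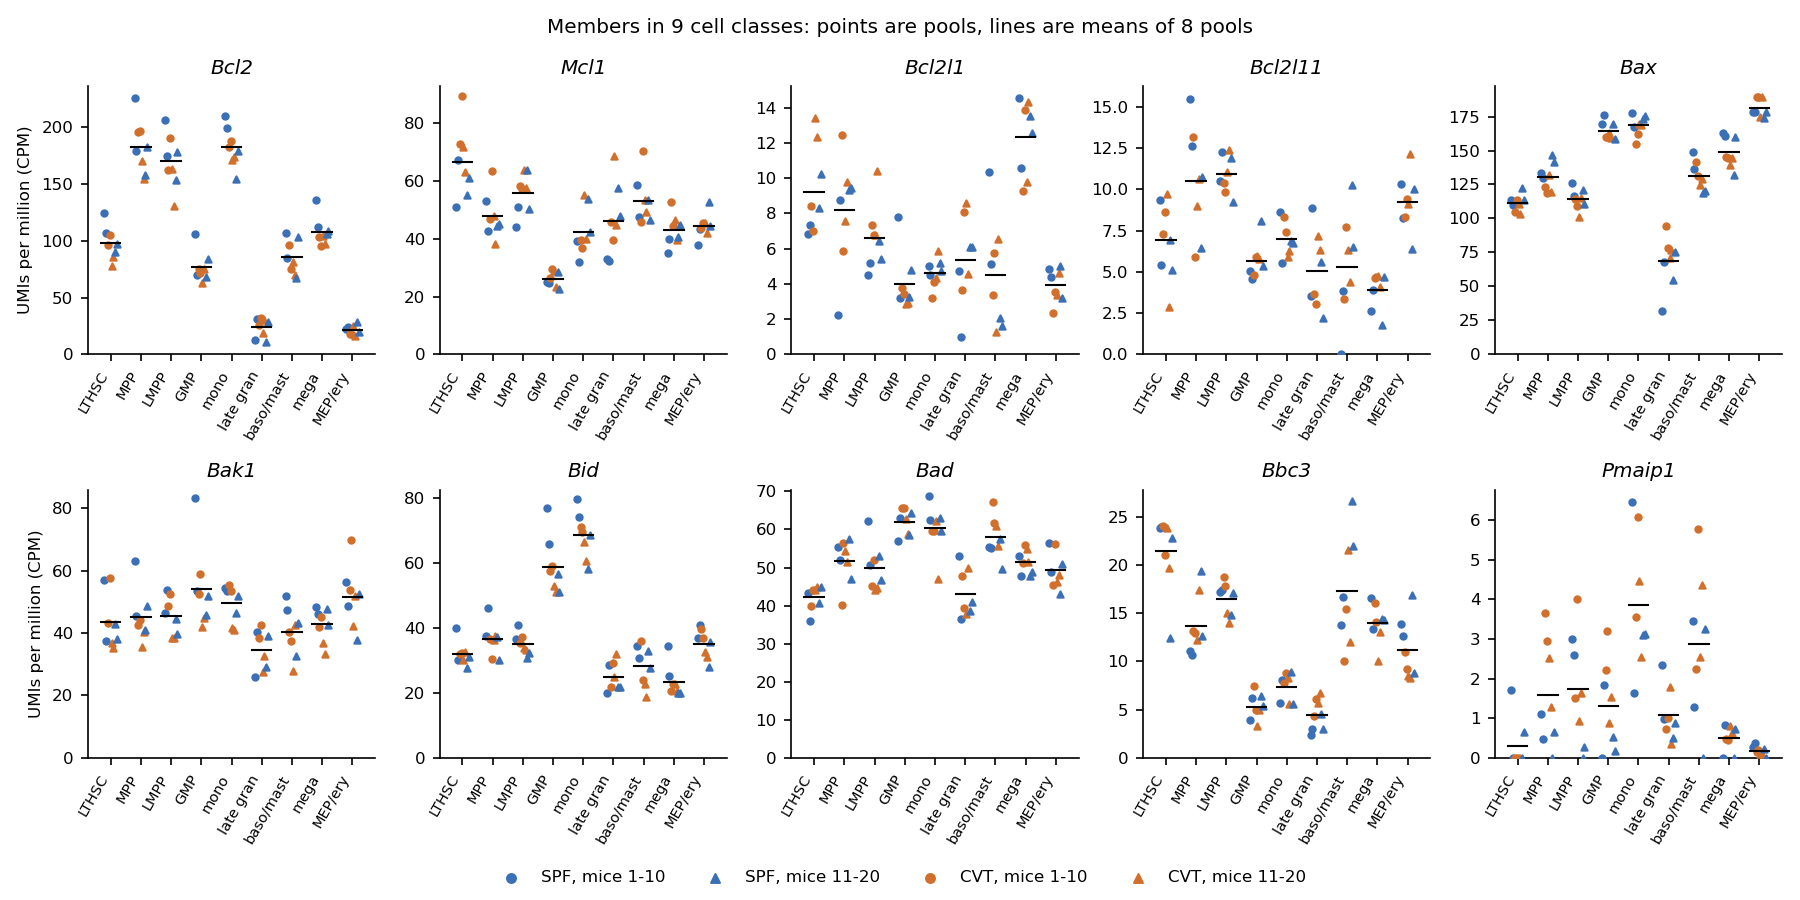
CPM of each member in 9 classes, with 1 point per pool (color marks housing, shape the pool set) and a line at the mean of 8 pools; axes start at 0 and differ between panels. As whole classes, MEP and erythroid-like and late granulocyte-like cells lay below the rest in Bcl2. Their clusters 1 and 25 reached 68.1 and 115 CPM, and GMP-like cluster 16 and monocyte-like cluster 22 lay at 21.7 to 32.4 and 12.4 to 42.6. Mcl1 was lowest in GMP-like cells, though per cell Mcl1 was lowest in basophil and mast-like cells.

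The effectors Bax and Bak, whose oligomers open the outer membrane, are encoded by Bax and Bak1. Bax lay between 173.7 and 189.6 CPM in MEP and erythroid-like cells (median 178.3) and between 31.8 and 94.3 in late granulocyte-like cells (median 72.9). Monocyte-like cells had 169 ± 7.44, GMP-like 165 ± 6.35, megakaryocyte-like 149 ± 11.4, basophil and mast-like 131.2 ± 10.4, MPP-like 131 ± 10.3, LMPP-like 114 ± 7.40 and LTHSC-like cells 111 ± 5.89. The only neighbors in this order that did not overlap were LTHSC-like and late granulocyte-like cells. The top place moved with the scale, to GMP-like cells at 2.53 UMIs per cell and to monocyte-like cells at 173.6 when each cell was scaled to its own total, while the lowest class was the same on all of these scales. Within the MEP and erythroid-like class, Bax was at 129 ± 8.70 CPM in cluster 1 and 224.5 ± 7.11 in cluster 21, the reverse of Bcl2, and in late granulocyte-like cluster 18 it was at 36.0 ± 12.4.

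Bak1 was flatter over the classes than Bax. Its means ran from 54.0 ± 13 CPM in GMP-like to 34.4 ± 6.45 in late granulocyte-like cells, and even these 2 classes overlapped over pools, although GMP-like cells were above in each of the 8. MEP and erythroid-like (51.7 ± 9.69), monocyte-like (49.7 ± 5.85) and LMPP-like cells (45.4 ± 6.20) followed GMP-like cells. Per cell the lowest class was basophil and mast-like, with 0.284 UMIs.

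Among the BH3-only genes, Bid, whose product links death receptors to mitochondria once caspase-8 cleaves it, was highest in the classes of the granulocyte-monocyte branch. It lay between 58.1 and 79.6 CPM in monocyte-like cells (median 69.1) and between 51.0 and 77.1 in GMP-like cells (median 57.1). All other classes were lower, from 36.5 ± 4.92 in MPP-like to 23.3 ± 4.89 in megakaryocyte-like cells, and GMP-like and MPP-like cells did not overlap. This did not hold for each cluster. GMP-like cluster 20, with 638 cells, lay at 30.9 to 46.3 CPM and monocyte-like cluster 22 at 37.3 to 81.1, which overlapped with MPP-like pools at 30.3 to 46.1. Monocyte-like cells were also highest per cell at 1.01 UMIs, and basophil and mast-like cells lowest at 0.199. Late granulocyte-like cells, with 25.0 ± 4.42 CPM, were among the low classes.

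Bad, which binds Bcl2 and Bcl-xL and is held inactive by growth factor signals, had the narrowest range, 1.47 times, from 62.0 ± 3.38 CPM in GMP-like to 42.2 ± 3.13 in LTHSC-like cells. The pools of these 2 classes did not overlap, and the order was the same per cell, at 0.953 and 0.273 UMIs, while with each cell scaled to its own total the ends were monocyte-like (61.0) and late granulocyte-like cells (41.4). Bcl2l11, which encodes Bim, was highest in LMPP-like cells at 10.9 ± 1.15 CPM and lowest in megakaryocyte-like cells at 3.9 ± 1.10. MPP-like (10.5 ± 3.31) and MEP and erythroid-like cells (9.24 ± 1.71) could not be told apart from LMPP-like cells, and per cell MEP and erythroid-like cells were highest at 0.117 UMIs and basophil and mast-like cells lowest at 0.0378. In MEP and erythroid-like cluster 21, where Bcl2 was lowest, Bcl2l11 was at 18.9 ± 4.58 CPM.

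Bbc3 encodes Puma, a target of p53 that mediates death after DNA damage in blood progenitors. It was highest in LTHSC-like cells, with a lowest, median and highest pool of 12.4, 23.3 and 24.1 CPM, and lowest in late granulocyte-like cells, with 2.36, 4.47 and 6.69. Basophil and mast-like (17.3 ± 5.65), LMPP-like (16.5 ± 1.69), megakaryocyte-like (14.0 ± 2), MPP-like (13.7 ± 3.08), MEP and erythroid-like (11.2 ± 3.09), monocyte-like (7.36 ± 1.46) and GMP-like cells (5.32 ± 1.36) filled the order, and all neighbors overlapped. Both ends were the same per cell, at 0.139 and 0.039 UMIs. In pools of mice 11 to 20 alone, basophil and mast-like cells were highest at 20.55 CPM, against 19.71 in LTHSC-like cells. Cluster 1 had 28.7 ± 7.01 CPM and cluster 21 5.11 ± 3.25, with a median of 5096 and 28710 UMIs in a cell. This difference in CPM need not hold per cell, which was not compared between clusters. Pmaip1, which encodes Noxa, a partner of Mcl1, was highest in monocyte-like cells at 3.87 ± 1.69 CPM, with 212 UMIs, and lowest in MEP and erythroid-like cells at 0.173 ± 0.119, with 17 UMIs. Per cell its lowest place went to LTHSC-like cells at 0.00195 UMIs. Within the monocyte-like class cluster 22 had 12.9 ± 11 CPM, against 3.69 ± 1.47 and 2.52 ± 1.30 in clusters 7 and 8.

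For 3 pairs of classes the log2 ratio of CPM plus 1 was taken within each pool, with GMP-like cells as the common reference, and a member was counted when the 8 values of both classes did not overlap. LTHSC-like cells had 2 members higher, Mcl1 and Bbc3, and 3 lower, Bax, Bid and Bad; of all 27998 genes 13.1% were higher and 4.72% lower in this way, or 30.6% and 11% of the 11913 genes with a mean of at least 1 CPM in either class. The log2 ratios were 1.30 ± 0.22 for Mcl1, 1.84 ± 0.51 for Bbc3, −0.85 ± 0.15 for Bid, −0.56 ± 0.07 for Bax and −0.54 ± 0.14 for Bad. Within pools, Bcl2 was also higher in all 8 and Bak1 lower in all 8, though their ranges overlapped between the classes. Such directions within pools were not counted over all genes. The members' median ratio was −0.05 and that of all genes with at least 1 CPM 0.38. Counted per cell, where the median of those genes moved to −0.73, no member was higher and 6 were lower (Bcl2, Bcl2l11, Bax, Bak1, Bid and Bad), and Bcl2, at 0.35 ± 0.16 in CPM, turned to −0.88. The share of all genes without overlap was not counted on this scale, so these counts per cell are not read as particular to the members.

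MEP and erythroid-like cells had Mcl1 and Bbc3 higher, 2 members, against 10.2% of all genes and 24.5% of 11272 genes with at least 1 CPM. For Bbc3 this rested on clusters 1 and 2, with pools at 17.0 to 37.7 and 11.1 to 15.8 CPM. In clusters 10, 15, 21 and 28 its pools lay at 2.79 to 4.86, 4.29 to 10.7, 0 to 9.21 and 0 to 19.7. These overlapped with GMP-like pools at 3.30 to 7.45 CPM. The median UMIs of a cell were 5096 and 9071 in clusters 1 and 2. They were 27050, 19570, 28710 and 12120 in clusters 10, 15, 21 and 28, so this split in CPM need not hold per cell. Bcl2, Bid and Bad, 3 members, were lower, against 6.93% and 16.8%. Bcl2 had the lowest ratio of these, −1.79 ± 0.39, followed by Bid at −0.72 ± 0.19 and Bad at −0.32 ± 0.16. Of these 3, only Bid lay below all GMP-like pools in every cluster of the class. Bcl2 reached 68.1 CPM in cluster 1, with GMP-like pools at 62.9 to 106.1. Bad reached 58.5, 59.1, 63.2, 64.1 and 98.3 CPM in clusters 2, 10, 15, 21 and 28, with GMP-like pools at 57.0 to 65.7. The ratio of Mcl1 was 0.74 ± 0.14 and that of Bbc3 0.94 ± 0.37, and the medians were −0.02 for the members and 0.18 for all genes. The ratio of Bax was 0.14 ± 0.10 in CPM and above 0 in all 8 pools, though its ranges overlapped between the classes. Per cell, with a median of −0.11 over all genes, 0 members were higher, and the ratio of Bax was −0.17. The share of all genes without overlap was not counted per cell.

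LMPP-like cells had 4 members higher than GMP-like cells: Bcl2 (1.15 ± 0.21), Mcl1 (1.06 ± 0.15), Bcl2l11 (0.85 ± 0.23) and Bbc3 (1.5 ± 0.30), against 10.3% of all genes and 24.6% of 11617 genes with at least 1 CPM. Bax (−0.52 ± 0.08) and Bid (−0.73 ± 0.15), 2 members, were lower, against 4.1% and 9.83%. Here the members' median ratio was 0.43 and that of all genes 0.27. Per cell the median of all genes was −0.55, 0 members were higher and 4 were lower (Bax, Bak1, Bid and Bad). These counts too stand without the share of all genes, which was not counted per cell. In CPM, Mcl1 and Bbc3 were above and Bid was below GMP-like cells in each of the 3 pairs. For Bbc3 in MEP and erythroid-like cells this held for clusters 1 and 2 only. The pairs share their reference, and the share of all genes alike in all 3 was not counted, so nothing is read from this agreement. Per cell the ratio stayed above 0 for Mcl1 (0.09, 0.44 and 0.17 in LTHSC-like, MEP and erythroid-like and LMPP-like cells) and Bbc3 (0.72, 0.69 and 0.69), with overlapping pools, and below 0 for Bid (−2.07, −1.04 and −1.63). No test was made between classes, because the classes were built from the expression of the same cells.

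The members did not share a single profile. Over the means of the 9 larger classes, on log2(CPM + 1), Pearson's r was 0.874 for Bax and Bak1, 0.756 for Bak1 and Bid and 0.734 for Mcl1 and Bbc3, and −0.643 for Mcl1 and Bad. Over the 12 named classes, among 9669 genes that reached 10 CPM in a class, those most like Bcl2 were Arfip1 (0.926), Elmo2 (0.925) and Tacc2 (0.916), and those most like Mcl1 were Ep300 (0.933), Cdkn1b (0.923) and Wnk1 (0.914). Bbc3 was most like Ssbp2 (0.948), Ankrd13a (0.945) and Arhgap6 (0.944), and Bax most like Mrpl37 (0.957), Nans (0.951) and Idh3a (0.945). For Bid the highest values were lower, 0.857 for Gorasp2, 0.849 for Gapdh and 0.844 for Ndufb8. The closest genes were Gm12355 (0.925), Snx8 (0.914) and Mrps14 (0.906) for Bak1, Magt1 (0.938), Uggt1 (0.924) and Cope (0.905) for Bad, and Rnf40 (0.949), Twsg1 (0.915) and Med11 (0.914) for Bcl2l11. For the lowest members they were Uimc1 (0.928), Scml4 (0.922) and Dgkd (0.901) for Bcl2l1 and Mtpn (0.934), Atp6ap1 (0.916) and Themis2 (0.915) for Pmaip1. The points share libraries and are few, and small classes carry some of these values: Pmaip1 had 2 UMIs in dendritic-like and 0 in T and NK-like cells, and Bcl2l11 had 0 in dendritic-like cells. Over the 9 larger classes alone only Ep300 for Mcl1 and Ankrd13a for Bbc3 were again among the first 3 genes.

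The housing comparison asked whether 1 month of co-housing moved these genes. In all KL cells Bcl2 was at 112.4, 107, 96.1 and 104.8 CPM in the SPF pools and 87.9, 96.8, 93.1 and 92.1 in the CVT pools, so that only the highest CVT pool reached into the SPF range. Mcl1 was at 38.4, 41.2, 50.3 and 43.9 in SPF and 43.0, 44.6, 51.0 and 42.2 in CVT pools, with overlap throughout. None of the 10 members was called by edgeR's quasi-likelihood test, where 0 of 13092 genes (0%) passed an adjusted p of 0.05. Before adjustment 392 genes were higher and 529 lower at p under 0.05, but 493 and 464 with RLE size factors and 511 and 430 by DESeq2, so which direction held more genes depends on the scaling. DESeq2 called 15 of 19020, 5 higher and 10 lower, with no member among them. The log2 fold changes, CVT over SPF, were −0.13 ± 0.06 (SE) for Bcl2, with an edgeR adjusted p of 0.686 and an unadjusted p of 0.0384, and 0.10 ± 0.10 for Mcl1. They were −0.06 ± 0.13 for Bcl2l1, 0.07 ± 0.05 for Bax, 0.05 ± 0.13 for Bak1, 0.06 ± 0.10 for Bid, 0.04 ± 0.07 for Bad, 0.07 ± 0.08 for Bcl2l11, −0.16 ± 0.08 for Bbc3 and 0.55 ± 0.30 for Pmaip1. By the fit, which rescales pools by TMM, 7 members were above 0 and 3 below, with a median of 0.05, and the median of all genes tested was −0.01. In plain CPM, Bak1 (48.6 in CVT and 48.9 in SPF pools) and Bad (52.6 and 53.1) were slightly lower in CVT, so these signs depend on the scaling. The content of cells also differed between the groups on average. Late granulocyte markers were at 26250 ± 16870 CPM in SPF and 18450 ± 12060 in CVT pools. The share of GMP-like cells was 6.71% ± 0.899 in SPF and 10.8% ± 2.47 in CVT pools, and that of LTHSC-like cells 11.5% ± 2.83 and 8.02% ± 2.21. The part of these differences in the values of members was not tested.

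No member was called within a class either. edgeR called 0 of 9869 genes (0%) in GMP-like, 0 of 9903 (0%) in LMPP-like, 0 of 9491 (0%) in LTHSC-like, 0 of 10831 (0%) in MEP and erythroid-like, 0 of 8791 (0%) in MPP-like, 0 of 7164 (0%) in late granulocyte-like and 0 of 10463 (0%) in monocyte-like cells. Before adjustment, p was under 0.05 for genes higher and lower in CVT that numbered 308 and 254, 299 and 242, 300 and 225, 298 and 437, 308 and 217, 211 and 207, and 332 and 265 in the same order, and DESeq2 called 0, 1, 0, 1, 0, 0 and 5. In basophil and mast-like cells edgeR called 1 of 6852 genes (0.0146%), Elane, a granule protease gene that was higher in CVT (1.18 ± 0.15, adjusted p 0.000579), and in megakaryocyte-like cells 2 of 9866 (0.0203%), Mt1 (0.53 ± 0.07, adjusted p 0.0138) and Cpa3 (−0.76 ± 0.11, adjusted p 0.0153). Elane led GMP-like clusters 9 and 16, and GMP-like cells made up 6.71% of SPF and 10.8% of CVT pools on average. RNA free in the suspension was not removed, and its part in the call of Elane was not tested. The count in megakaryocyte-like cells was 0 without SPF pool 7 or 8, 1 without pool 1, 2 or 3, 4 without CVT pool 5 and 8 without CVT pool 6, and that in basophil and mast-like cells was 4 without SPF pool 7 and 2 without CVT pool 6. Without CVT pool 6 edgeR also called 4 genes in GMP-like, 1 in LMPP-like, 3 in LTHSC-like, 2 in MPP-like and 1 in monocyte-like cells, and without CVT pool 5 it called 1 in LMPP-like cells. A term for the pool sets in the fit changed the counts as well, to 4 in all KL cells, 3 each in GMP-like, LMPP-like, MPP-like and basophil and mast-like cells and 10 in megakaryocyte-like cells, with 0 members among them. All 10 members passed the filter on low counts in all KL cells and in monocyte-like cells, 9 (all but Pmaip1) in 6 classes, and 7 in basophil and mast-like (not Bcl2l1, Bcl2l11 and Pmaip1) and late granulocyte-like cells (not Bcl2l11, Bbc3 and Pmaip1).

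Within classes 4 of 78 values of members had an unadjusted p under 0.05, with none near the threshold after edgeR's adjustment. This is about the share that a threshold of 0.05 lets through without any change. Mcl1 in LTHSC-like cells was 0.35 ± 0.11 (adjusted p 0.872), Bcl2l1 in LMPP-like cells 0.56 ± 0.24 (0.881), Bbc3 in MEP and erythroid-like cells −0.40 ± 0.17 (0.694) and Bax in late granulocyte-like cells 0.36 ± 0.16 (0.820). The clusters of these 4 classes were not held in the same shares: cluster 4 made up 60.5% of SPF and 67.9% of CVT LTHSC-like cells, cluster 3 made up 68.2% and 61.9% of LMPP-like cells, cluster 1, where Bbc3 was at 28.7 CPM against 12.6 in cluster 2, made up 44.1% of SPF and 37.6% of CVT cells of its class, and cluster 18, where Bax was at 36.0 CPM, 51.2% and 41.8%. The part of these shares in the 4 values was not tested. The CPM of CVT and SPF pools did not overlap for 3 of the 87 pairs of a member and a class with a mean of at least 1 CPM, a share like the 3.72% of all such pairs of a gene and a class. In all KL cells 0 members and 6.35% of 11340 genes had no overlap. The 3 pairs are given as levels only. Bcl2l1 in LMPP-like cells was at 4.49, 5.19, 6.43 and 5.43 CPM in SPF and 7.36, 6.78, 6.75 and 10.4 in CVT pools. Bcl2 in megakaryocyte-like cells was at 135.7, 112.3, 105.6 and 108.6 in SPF and 103.2, 95.7, 104.5 and 97.0 in CVT pools, and Pmaip1 in MPP-like cells was higher in CVT by 2.04 CPM on average, on 24 UMIs in all.

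**Figure D4:**
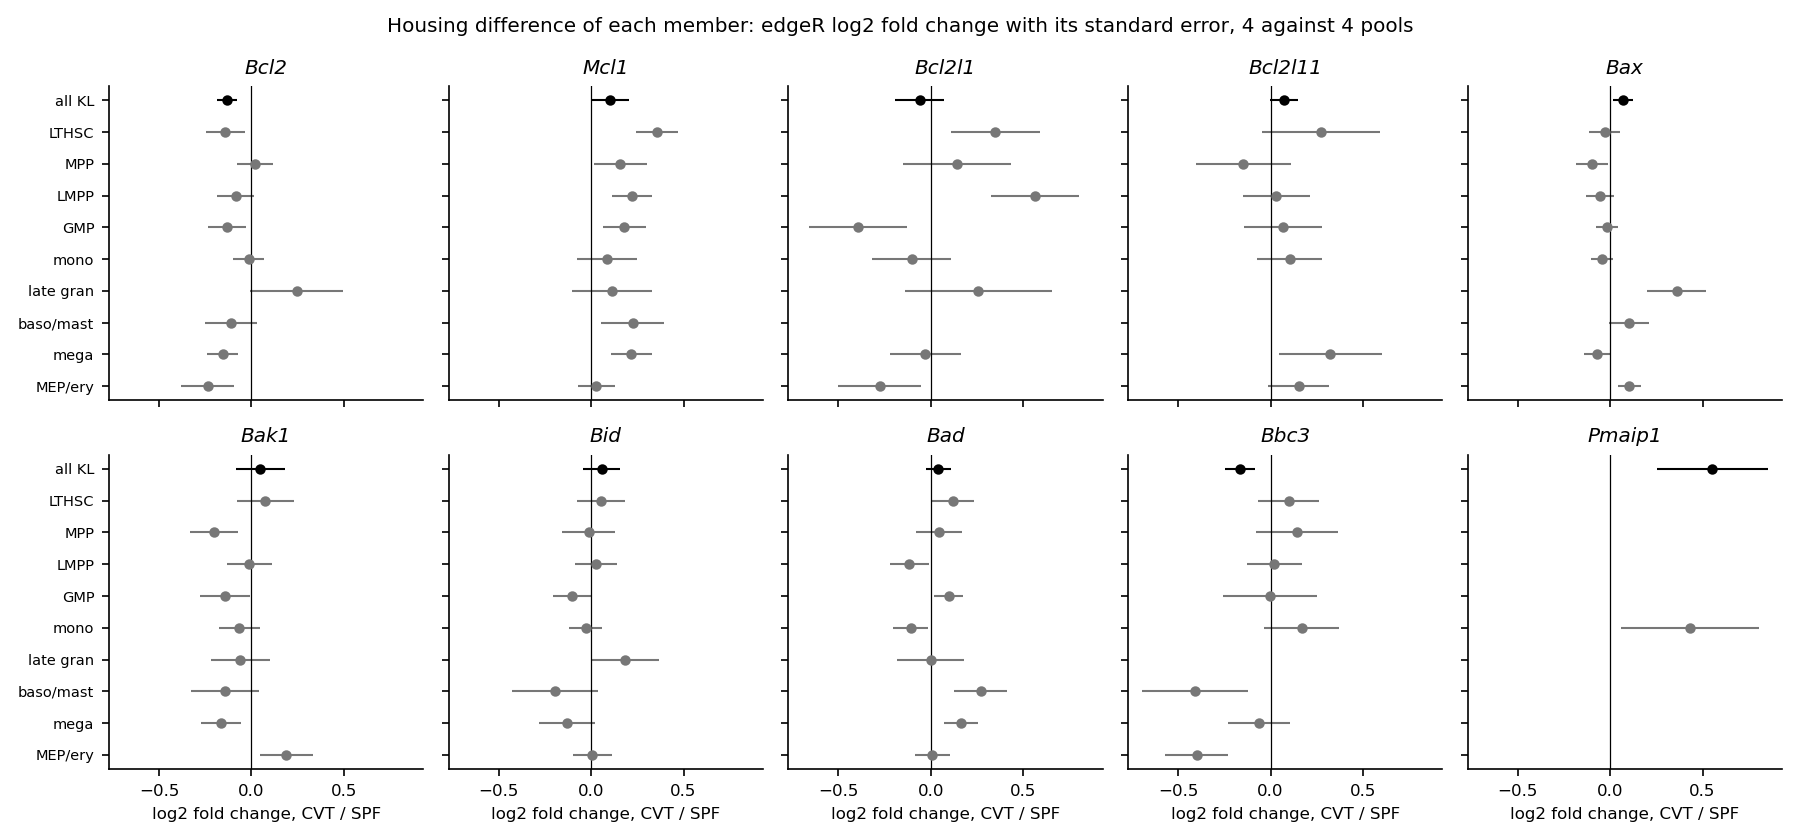
Log2 fold change of each member, CVT over SPF, in all KL cells and in 9 classes, with its standard error from edgeR (4 against 4 pools); a gap means that the member did not pass the filter on low counts. No value was called at an adjusted p under 0.05.

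Between the 2 pool sets, Bid and Bak1 differed in both housing groups. In all KL cells Bid was at 47.2 and 47.0 CPM in the SPF and 45.6 and 46.1 in the CVT pools of mice 1 to 10, and at 35.7 and 39.3 in the SPF and 39.2 and 38.6 in the CVT pools of mice 11 to 20. Bak1 was at 56.7 and 49.6 (SPF) and 51.7 and 59.6 (CVT) in the first set and at 41.7 and 47.7 (SPF) and 40.1 and 42.9 (CVT) in the second. For both genes every pool of the first set was above every pool of the second, whatever the housing; with Bax, 3 of 10 members had no overlap, beside 20.9% of 11340 genes with at least 1 CPM. In a fit with housing, edgeR called 2 of the 10 members between the sets, against 20.2% of all genes (2646 of 13092, with 1373 higher and 1273 lower in mice 11 to 20), a share like that of the members. Bid had a log2 change of −0.27 ± 0.05 (adjusted p 0.0119) and Bak1 of −0.33 ± 0.08 (adjusted p 0.0223).

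The other 8 members were not called between the sets. Bax also had no overlap, at 158 ± 2.38 CPM in the first set and 148.3 ± 3.76 in the second, but its log2 change was −0.08 ± 0.04 with an edgeR adjusted p of 0.187. Pmaip1 had −0.62 ± 0.22 (adjusted p 0.0694), and was called when edgeR ran without the filter on low counts (adjusted p 0.0361), while Bcl2l1 had 0.25 ± 0.10 (adjusted p 0.101). The median was −0.08 over the members and 0.01 over all genes tested. The genes with the largest changes were those of red cells, Hba-a2 (5.0), Hbb-bs (4.75) and Alas2 (4.11), which were higher in mice 11 to 20, and 1700024P16Rik (−2.29), Lmo7 (−1.49) and Tox2 (−1.20), which were lower. Late granulocyte and erythroid markers, given above, moved in the same way as the red cell genes, and their part in the values of Bid and Bak1 was not tested.

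The count of genes called between the sets changed when single pools were left out. It was 82 without pool 3, 221 without pool 5, 266 without pool 6, 354 without pool 4, 754 without pool 7 and 1424 without pool 2, and it was 2872 without pool 1 and 4510 without pool 8. Bid lost its call only without pool 3 (−0.29, adjusted p 0.0564), and Bak1 without pool 3, 4, 5, 6 or 7 (adjusted p 0.0632, 0.0643, 0.0816, 0.0674 and 0.0601). The direction of both held in each of these fits.

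Within classes the sets did not overlap for 11 of 87 pairs of a member and a class, beside 6.91% of all pairs of a gene and a class with at least 1 CPM (from 3.54% in late granulocyte-like to 9.63% in MEP and erythroid-like cells); classes share their pools, so the pairs are not independent. Bid had no overlap in 4 classes, with means of 64.9 and 52.9 CPM in GMP-like, 37.5 and 32.5 in LMPP-like, 38.6 and 31.8 in MEP and erythroid-like and 73.6 and 63.5 in monocyte-like cells. Bak1 had none in GMP-like (62.0 and 46.1), LMPP-like (50.5 and 40.3) and monocyte-like cells (54.2 and 45.3). Other cases were Bbc3 in LMPP-like (17.8 and 15.2), Bax in basophil and mast-like (139.3 and 123), and Bcl2 (195.1 and 169.6) and Mcl1 (36.9 and 47.8) in monocyte-like cells. These are levels chosen after the values were seen, with no test. Whether housing acted differently in the 2 sets was asked by the interaction of both. edgeR called 0 of 13092 genes (0%) and 0 of 10 members, with 505 genes higher and 683 lower when p was under 0.05 before adjustment, and 32 genes by DESeq2. The members' median was −0.07 and that of all genes tested 0.0046.

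**Figure D5:**
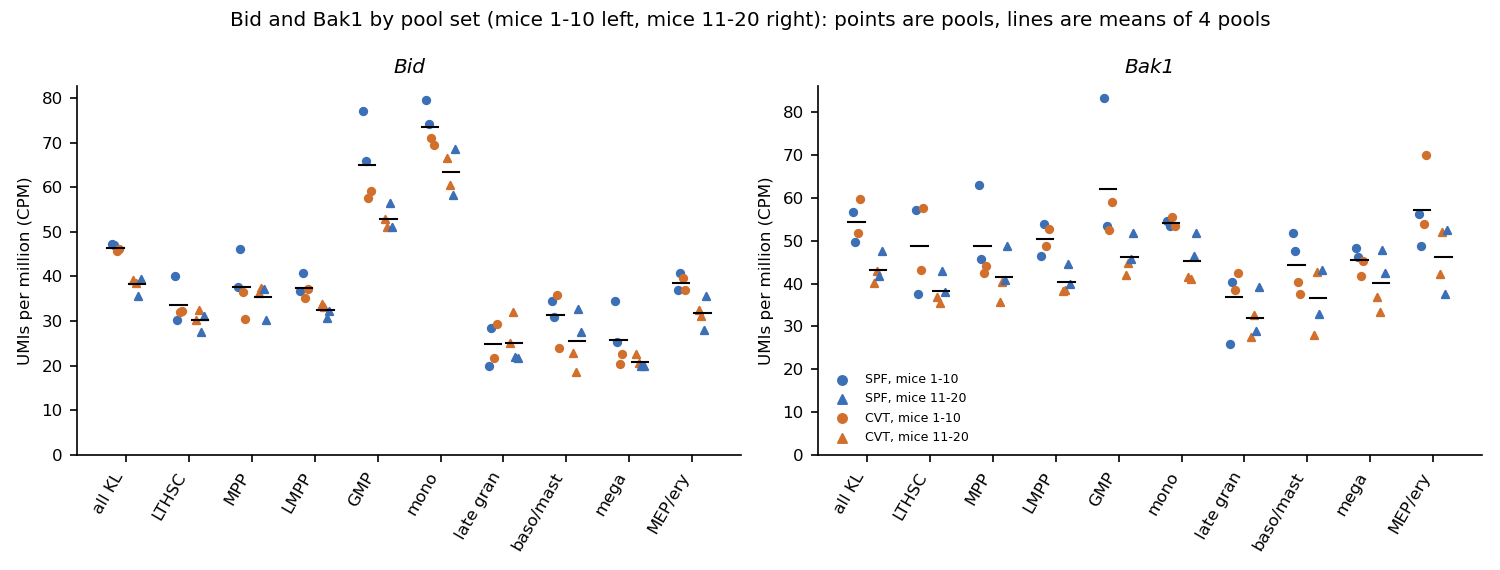
CPM of Bid and Bak1 in all KL cells and in 9 classes, with pools of mice 1 to 10 on the left and of mice 11 to 20 on the right of each place; points are pools and lines are means of 4 pools. In all KL cells Bid was at 45.6 to 47.2 CPM in the first set and at 35.7 to 39.3 in the second.

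The wider pathway was followed by 55 other genes in 8 roles, of which 52 passed the filter in all KL cells (not Bcl2l10, Bcl2l15 and Hrk). In the housing comparison 24 were above 0 and 28 below, 0 were called, and the median was −0.02. Between the pool sets 14 were called, 5 higher and 9 lower in mice 11 to 20, beside the 20.2% of all genes. They included 6 of 17 apoptosome and caspase genes, among them Apaf1 (0.36 ± 0.09) and Xiap (0.23 ± 0.07), which were higher, and Htra2 (−0.37 ± 0.07), Aifm1 (−0.36 ± 0.07) and Diablo (−0.18 ± 0.05), which were lower. Both Cflar (0.26 ± 0.05) and Fas (0.63 ± 0.20), 2 of 8 genes of the death receptor arm, were higher. Vdac1 (−0.28 ± 0.06), Slc25a5 (−0.26 ± 0.06) and Vdac2 (−0.21 ± 0.06), 3 of 5 mitochondrial channel genes, were lower. Trp53 (−0.22 ± 0.06) was the gene called among 7 of p53 and stress, Bcl2l13 (−0.31 ± 0.07) among 4 other multidomain members and Bcl2l2 (0.43 ± 0.14), a pro-survival member, among 4 tested. None of 4 other BH3-only or related genes and of 3 genes of Mcl1 turnover was called. The count of 14 changed when single pools were left out, and was 0 without pool 3, 5 or 6, 3 without pool 4, 4 without pool 7, 8 without pool 2 and 22 without pool 8. Late granulocyte-like cells, whose markers were higher in the second set, held the lowest class means of Slc25a5 (453.5 CPM), Vdac2 (177.6), Htra2 (32.4), Trp53 (66.2) and Bcl2l13 (8.49), which were called lower. They also held the lowest class mean of Bcl2l2 (2.65 CPM), which was called higher. The part of cell content in these changes was not tested.

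By level the most abundant of each role in all KL cells placed the members in their pathway. Cycs, the cytochrome c gene, was at 464.9 ± 16.3 CPM, Parp1 at 104 ± 6.58 and Htra2 at 81.2 ± 13, and of the channels Slc25a5 was at 1185 ± 130.5, Vdac2 at 264.7 ± 26.2 and Slc25a4 at 219.8 ± 12.1. Trp53, whose product p53 induces Bbc3, Pmaip1 and Bax, was at 238 ± 24.1 CPM, with its highest class mean in MEP and erythroid-like cells (322.1 ± 26.7), as for Bax, while Bbc3 was highest in LTHSC-like cells. Ccng1 (27.5 ± 2.13) and Foxo3 (24.9 ± 2.14) followed in that role. Casp8, which cleaves Bid, was at 68.2 ± 4.48 with its highest mean in MPP-like cells (104 ± 9.40), unlike Bid, and Tradd (35.4 ± 3.72) and Cflar (32.6 ± 3.22) came after it. Of genes that control Mcl1 protein, Huwe1 was at 63.8 ± 3.8, Usp9x at 40.9 ± 3.51 and Fbxw7 at 12.2 ± 0.920. Bnip3l (145 ± 11.3), Bnip3 (15 ± 1.31) and Bik (0.617 ± 0.183) led the other BH3-related genes, and Bcl2l12 (60.9 ± 3.05), Bcl2l13 (20.3 ± 2.77) and Bcl2l14 (2.0 ± 0.28) the other multidomain ones. Among other pro-survival genes Bcl2l2 was at 4.40 ± 0.907, with Bcl2a1b (0.845 ± 0.36) and Bcl2a1d (0.444 ± 0.196) below; the Bcl2a1 copies are nearly identical, so their counts are uncertain.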

How the data were processed

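KL cells of 4 SPF and 4 CVT pools were sequenced with the 10x Genomics 3' kit, version 2. The deposited table holds UMI counts, whole numbers without normalization, that the authors made with Cell Ranger; the submitters' notes name build mm9, and the version of Cell Ranger is not given in the sources used here. All 29891 cells were used, with 2759 to 49732 UMIs and 502 to 5497 genes each. The number that ends a cell's name was matched to the number in the sample's description, and cell counts per group were a little lower than those the study states. A pool's depth was 19041749 to 59812346 UMIs, and precision is given by the SD over pools or edgeR's standard error. Pools of the same group differed by more than counting error (chi-square per degree of freedom 11.2 to 138.5), so none was counted as a repeat.

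Each cell was brought to 10000 UMIs and logged. The 1000 most variable genes in 20 bins, without the members and the wider list, were standardized, limited to 10 and turned into 30 principal components (scikit-learn 1.9.0). Leiden clustering of a graph with 30 neighbors used resolution 2 and seed 1, in leidenalg 0.10.2 with igraph 0.11.9. A cluster took the name of a class when at least 3 of its markers were among the 100 most specific genes, no other class had more among the 10 leading genes, and at least 1 was among those 10. Doublets were scored with Scrublet in scanpy 1.11.5, which marked 92 cells (0.308%), too few to be used. Classes with at least 20 cells in every pool were tested.

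The sums of UMI counts in a pool went into edgeR 4.0.16 (TMM, filterByExpr, quasi-likelihood, Benjamini-Hochberg adjustment over all genes tested) and, as an alternative, DESeq2 1.42.0, run in R 4.3.3 with limma 3.58.1; the tests were first tested on simulated data. Log2 ratios between classes used a pseudocount of 1 CPM, and 0.008964 for UMIs per cell. Python 3.11.15 was used with pandas 2.3.3, numpy 2.4.6, matplotlib 3.10.9 and scipy 1.17.1. The genes named are the 10 members in every comparison, the 3 most abundant of each role of the wider list and those of it called, the 3 genes most like each member over classes, and up to 3 genes called with the largest change in each direction; 1 gene called in the wider list is not reported here. Members and lists were chosen with earlier results of these data known. Choices made after values were seen are the need for a marker among the 10 leading genes, the floor of 1 CPM, shares of genes whose pools do not overlap between groups, likeness over 9 classes, the ratio of Mcl1 to Bcl2, values of single clusters and of pool sets in classes, the promoters shown, the genes called between pool sets in the wider list, and leaving out the 5% of cells with the highest doublet scores. Alternatives were DESeq2, size factors by RLE, testing without the filter on low counts, a term for the pool sets, the 29300 cells with 1000 genes or more and no more than 10% of UMIs from mitochondrial genes, resolution 1, clustering with the lists allowed, other scalings, single pool sets, and each pool left out in turn.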

Additional observations from a re-analysis of the deposited data

Results flagged for a closer look

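Of 200 groups of 4 pools of the same housing (10 members in all KL cells and in 9 classes), 14 held a pool whose gap to the nearest of the others took up more of the range than Dixon's 95% critical value for 4 values; chance does so in about 1 of 20 groups. Values are in CPM. In all KL cells, SPF pool 1 had 8.35 of Bcl2l11 (others 7.22 to 7.27).

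CVT pool 5 and SPF pool 7 were each the pool apart in 4 cases, and Bax was the member in 4. Bax was at 175 in MEP and erythroid-like cells of CVT pool 5 (others 189.4 to 189.6) and at 173.7 in those of SPF pool 7 (others 178 to 178.3). In megakaryocyte-like cells it was at 139.3 in CVT pool 5 (others 144.3 to 145.3) and at 131.7 in SPF pool 7 (others 160.2 to 162.8). SPF pool 7 was low for Bbc3 in 2 classes, with 14.8 in LMPP-like (others 17.1 to 17.4) and 12.4 in LTHSC-like cells (others 22.8 to 24.0), but it had the highest Bbc3 of the 8 pools in all KL cells (12.6) and in MEP and erythroid-like (16.9), MPP-like (19.4), basophil and mast-like (26.6) and monocyte-like cells (8.95). CVT pool 5 was high for Mcl1, with 63.8 in LMPP-like (others 57.3 to 58.1) and 55.25 in monocyte-like cells (others 36.9 to 40.0).

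The other cases were Bcl2l11 in GMP-like cells of CVT pool 3 (4.78, others 5.80 to 5.94), Bcl2l1 in LMPP-like cells of CVT pool 6 (10.4, others 6.75 to 7.36) and in MPP-like cells of SPF pool 1 (2.21, others 8.74 to 9.44), Bad in LMPP-like cells of CVT pool 4 (52.1, others 44.2 to 45.2) and Bid in MPP-like cells of CVT pool 4 (30.6, others 36.4 to 37.5). SPF pools 1 and 7 had the fewest UMIs (19041749 and 19814800), and the part of depth in these values was not tested.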

How the results depend on the processing

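No member was called between CVT and SPF under any alternative: in all KL cells 140 fits gave 5 changes of sign, none over 1 SE, and in classes 1231 fits gave 88, of which 2 were over 1 SE. With 1 pool left out, the log2 change in all KL cells ranged from −0.17 to 0.0441 for Bcl2l1, −0.0784 to 0.13 for Bak1, −0.0025 to 0.12 for Bid and −0.0199 to 0.0758 for Bad. Of all genes in KL cells DESeq2 called 15 and a fit with a pool set term 4. Without the filter on low counts edgeR called 38 genes in GMP-like, 38 in LMPP-like, 43 in LTHSC-like, 1 in MEP and erythroid-like, 31 in MPP-like, 31 in basophil and mast-like, 29 in late granulocyte-like and 57 in megakaryocyte-like cells; DESeq2 called 1 in LMPP-like, 1 in MEP and erythroid-like and 5 in monocyte-like cells. The pool set term gave 3 in GMP-like, 3 in LMPP-like, 3 in MPP-like, 3 in basophil and mast-like and 10 in megakaryocyte-like cells. Leaving out 1 pool gave 0 to 4 in GMP-like, 0 to 1 in LMPP-like, 0 to 3 in LTHSC-like, 0 to 2 in MPP-like, 1 to 4 in basophil and mast-like, 0 to 8 in megakaryocyte-like and 0 to 1 in monocyte-like cells. Clustering with the lists allowed gave 2 in basophil and mast-like and 0 in megakaryocyte-like cells and left no MPP-like class to test; resolution 1 gave 0, as did leaving out SPF pool 7 or SPF pool 8, and leaving out the top doublet scores 1, in megakaryocyte-like cells. The interaction called 13 without the filter, 32 by DESeq2 and 0 to 1 with a pool left out. Between the pool sets 82 to 4510 genes were called with 1 pool left out. The cause of these changes was not tested.

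Against GMP-like cells, UMIs per cell left 0 members higher and 6 lower in LTHSC-like, 0 higher in MEP and erythroid-like, and 0 higher and 4 lower in LMPP-like cells, and the ratio of Bcl2 in LTHSC-like cells reversed to −0.88. The median ratio of all genes moved as well, to −0.73, −0.11 and −0.55 in these classes. The share of all genes without overlap was not counted per cell. That of Bax in MEP and erythroid-like cells reversed to −0.17 per cell and to −0.0374 with each cell's own CPM. In pools of mice 1 to 10 alone 4 members were higher in MEP and erythroid-like cells. Lack of overlap is easier to reach with fewer pools, and the share of all genes in these pools was not counted. This count is therefore not comparable with that over all pools. The highest class was the same for 9, 7, 8, 6, 10, 9, 9 and 8 of 10 members, and the lowest for 8, 10, 6, 3, 10, 9, 8 and 7, at resolution 1, with lists allowed, with each cell's own CPM, per cell, with the cell filter, without top doublet scores, and in mice 1 to 10 and 11 to 20.

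Limits: removing marked doublets was not run, since Scrublet marked 0.308% of cells, and the top 5% of scores were left out instead, a choice made after seeing the data. Single pools could not be paired because the groups share no replicate numbers, so the pool sets entered only as a term in the fit. Depth limits Pmaip1, Bcl2l1 and Bcl2l11 most, with 512, 1880 and 2527 UMIs over 8 pools. Class names were rebuilt from markers and may differ from the study's.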
